A study of Rattus norvegicus with 6 samples.

Results

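The values described here come from retinal ganglion cells (RGCs) that were cultured without any added synapse-inducing protein, the group called Alone. Members were the arrays labelled as untreated, 2 of the 6 arrays of the series, with 14217 genes measured by at least 1 probe set that carries a single gene symbol. The series asked how glypican 4 (Gpc4) and thrombospondin 1 (TSP1) change neuronal mRNA, and it holds 2 arrays in each of the 3 groups Alone, Gpc4 and TSP1. Gpc4 and TSP1 arrays carry RNA of RGCs given that protein for 12 hours. They were used here to ask whether a difference between the Alone arrays returned in other arrays of the same replicate numbers. They also served to count genes that were strong on all 6 arrays. All neurons, untreated ones included, came from rats of postnatal day 6 per the labels, were kept for 12 days in culture, and received brain-derived neurotrophic factor (BDNF), ciliary neurotrophic factor (CNTF), forskolin, insulin and triiodothyronine in the medium, with FUDR added after plating against dividing cells. Pups of both sexes were used. Cells were purified by immunopanning: lectin-coated dishes removed microglia and fibroblasts, and dishes coated with the antibody T11D7, which binds Thy1, retained RGCs. Each array carried the RNA of 2 pooled wells. The methods state 2 separate cultures, and the replicate numbers 1 and 2 were taken to stand for them, which the labels do not say. On this reading a difference between the Alone arrays is one between cultures. With 1 array per culture, it cannot be told apart from a difference in the handling of the arrays.

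RGCs are the output neurons of the retina. They collect input from bipolar and amacrine cells, release glutamate from long axons that form the optic nerve, and are known for strong expression of neurofilaments, gamma-synuclein and the vesicular glutamate transporter Slc17a6. In isolation they survive on trophic factors but form few synapses. Their mRNA in this state is therefore the baseline on which astrocyte proteins act.

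The arrays read each transcript through sets of short oligonucleotides (probe sets), and the value of a set is a log2 signal. The Alone arrays had medians of 5.98 and 5.97, 90th percentiles of 9.86 and 9.87, and ranges of 2.83 to 14.24 and 2.76 to 14.15. A gene is called strong here where its mean percentile among all 31042 probe sets was at least 90, and weak where it was below 50. By these definitions 2317 of 14217 genes (16.3%) were strong and 4830 (34%) were weak, and these shares are the background for every list below. The median percentile of a gene was 65.9, with the brightest probe set standing for each gene and with percentiles taken over all probe sets, those without a symbol included. At the upper threshold, Ncoa4 (9.81 and 9.92) lay just inside and Araf (9.87 and 9.86) just outside. Of the strong genes, 2241 were strong on each Alone array and 2129 on all 6 arrays. Of the weak genes, 4693 were weak on each Alone array.

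Probes differ in how well they bind, so a signal does not rank the mRNA amounts of different genes, and the files hold no detection calls. Lists of known kind on the same arrays show what strong and weak signals hold. Of 64 genes of unrelated organs such as liver, pancreas and testis, 55 were weak, and 95% of them had means up to 6.65 on the log2 scale, a level that 8414 genes reached or passed. Of the other members 8 lay between the thresholds, among them the muscle actin Acta1 (8.30 and 8.51) and Nppa (7.67 and 7.69), and the muscle myosin Myh1 was strong at 10.72 and 10.91. Of 25 ribosomal protein genes, which every cell uses, 23 were strong, but Rpl28 (4.85 and 5.29) and Rpl30 (3.73 and 3.32) were weak, so a weak signal does not show that an mRNA is missing. Probe sets of 1 gene can also disagree: over 4525 genes with more than 1 probe set the median range was 2.22. Of these genes 968 were strong by their brightest probe set, and 403 of the 968 also had a weak one. Among them are genes called strong below, such as Rbpms, Tubb3 and Nptxr, with lowest probe set means of 4.425, 4.065 and 4.6. Gap43 held the widest gap, with probe set means of 13.65 and 2.99, followed by Gnas with 13.88 and 3.59.

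In the text that follows, a pair of values gives the log2 signal in Alone replicate 1 and then in replicate 2. The mitochondrial genes COX1 (14.24 and 14.15) and COX2 (14.21 and 14.15), which encode cytochrome c oxidase subunits, led all 14217 genes. They were followed by the cytoplasmic actin Actg1 (14.06 and 14.00) and by Sncg (14.03 and 13.97), which encodes gamma-synuclein, a marker of RGCs in the retina. The other genes among the brightest 10 were Zwint, Tmsb4x, Gnas, Rps29, Stmn2 and Gap43. The brightest 30 held 6 ribosomal protein genes, Rps29, Rpl27a, Rps23, Rpl26, Rpl19 and Rps24, and the elongation factor Eef1a1. They also held genes of the neuronal cytoskeleton, the intermediate filament peripherin Prph (13.58 and 13.55), the tubulin-binding Stmn3 (13.36 and 13.36) and the tubulin Tubb2a (13.29 and 13.30). Secretory neurons were represented by Cpe (13.53 and 13.55), which encodes carboxypeptidase E, an enzyme that trims neuropeptide precursors, and by Cartpt (13.63 and 13.46), the precursor of the CART peptides. Every one of these pairs differed by 0.17 or less.

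Most measured genes on the list of RGC markers gave strong signals. Pou4f2, Pou4f3 and Ebf3 had no named probe set and were not analysed here. Of 23 measured RGC markers, 14 were strong and 3 were weak, with a median percentile of 97.2. Behind Sncg stood the growth-associated Stmn2 (13.67 and 13.70) and Gap43 (13.67 and 13.63), and Slc17a6 (13.22 and 13.22), which loads glutamate into vesicles. The neurofilament chains Nefl (12.84 and 12.86), Nefm (12.88 and 12.70) and Nefh (11.32 and 11.28) were all strong. So were the RNA-binding Rbpms (11.73 and 11.61), a pan-RGC marker, and Thy1 (11.67 and 11.61), the surface antigen used for panning. Elavl2, Elavl4, Tubb3, Uchl1 and L1cam completed the 14. Stmn2, Gap43, Tubb3 and the neurofilament chains also stand on the list of neuronal cytoskeleton genes. The count alone therefore does not set RGCs apart from other neurons. Thy1 and the neurofilaments therefore gave signals near the top of the array on each of the cultures.

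RGC transcription factors gave lower signals than these structural and secretory genes. Isl1 (9.16 and 9.18), which is needed for RGC differentiation, stood at percentile 84.2, and Ebf1 (9.72 and 9.61) at 88.6. Pou4f1, which encodes Brn3a, had 8.04 and 7.77, Sox11 had 7.90 and 7.89, and Isl2 had 7.12 and 7.20, all between the thresholds. Sox12 was weak at 3.70 and 3.66. Opn4, which encodes the melanopsin of the intrinsically photosensitive RGCs, was weak at 4.61 and 5.62, and it was the 1 RGC marker that differed by at least 1 between the arrays. Of the nicotinic receptor subunits used as RGC markers, Chrna6 had 7.65 and 7.43 and Chrnb3 had 4.79 and 4.82.

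Of 26 genes known to mark RGC subtypes, 7 were strong, and 5 of these encode neuropeptide precursors. They were Cartpt, Tac1 (12.58 and 12.54), the precursor of substance P, Adcyap1 (11.36 and 11.08), the precursor of PACAP, Gal (11.00 and 10.72) for galanin and Npy (10.82 and 10.29) for neuropeptide Y. The calcium-binding proteins calretinin, Calb2 (11.01 and 10.86), and calbindin, Calb1 (10.90 and 10.76), were the other two. Eomes, a transcription factor of the melanopsin lineage, had 8.03 and 8.67. Tbr1 (4.04 and 3.98) and Zic1 (3.99 and 3.96) were weak. Bulk RNA does not show whether a subtype gene is high in few cells or moderate in many.

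Among genes of other retinal cells, photoreceptor markers were mostly weak, and the other lists held both weak and brighter members. Of 22 photoreceptor markers 19 were weak, with a median percentile of 20.5. The cone and rod factor Crx had 3.67 and 3.46, the cone transducin Gnat2 had 3.35 and 3.53, and the photoreceptor calcium sensor Rcvrn had 4.10 and 3.92. The strong exception, Gnb1 (13.09 and 13.01), encodes a G protein beta subunit that neurons in general use. Of 10 bipolar markers none was strong and 5 were weak, and the highest was Isl1, which RGCs share. Of 24 amacrine and horizontal cell markers 13 were weak. The 3 strong ones were Pax6 (11.93 and 11.93), Calb1 and Nrxn2 (10.64 and 10.71), the last also on the list of synaptic adhesion genes. The amacrine factors Ptf1a (4.77 and 4.51) and Tfap2a (4.54 and 4.37) were weak. Of 23 cell cycle genes 14 were weak, among them Mki67 (3.81 and 4.10), Top2a (4.17 and 4.22) and Ccna2 (3.72 and 3.75), and the single strong one was Pcna (10.37 and 10.37).

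Of 25 astrocyte and Müller glia markers 13 were weak, with a median percentile of 49.7. Among them were S100b (4.09 and 3.89), the glutamate transporter Slc1a2 (4.22 and 4.03) and the potassium channel Kcnj10 (3.47 and 3.40). The water channel Aqp4 (5.88 and 6.03), also weak, lay close to the threshold. The 5 strong ones were Clu (12.70 and 12.84), Dkk3 (12.69 and 12.76), Aldoc (12.60 and 12.48), Vim (10.78 and 11.46) and Glul (9.74 and 10.03). Aldoc also stands on the glycolysis list and Glul on the amino acid list. Of 14 oligodendrocyte and precursor markers 11 were weak. Of 21 endothelial and pericyte markers 16 were weak, and the highest was Tagln (8.05 and 9.43), a smooth muscle protein. Of 20 microglia and macrophage markers 12 were weak and none was strong, with Fcer1g (8.59 and 7.35) the highest and P2ry12 (3.93 and 3.58) the lowest. Of 24 fibroblast and meningeal markers 10 were weak and 2 were strong, the matrix proteins Mgp (9.94 and 11.10) and Sparc (9.53 and 10.47).

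**Figure D1:**
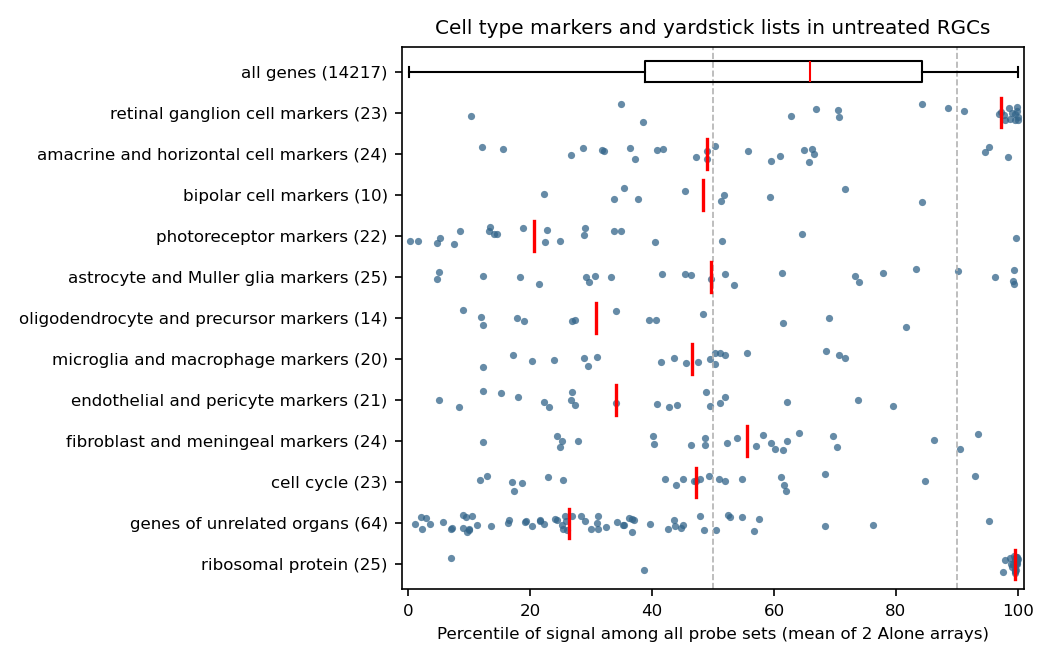
Percentile of each measured gene's signal among all probe sets of the Alone arrays (x axis, mean of 2 arrays, from 0 to 100) for marker lists and yardstick lists (y axis, number of measured genes in parentheses). Points are genes, red lines are medians, the box gives the quartiles of all 14217 genes with whiskers over the rest, and dashed lines mark percentiles 50 and 90; RGC markers have a median of 97.2, photoreceptor markers 20.5 and genes of unrelated organs 26.4.

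The neuronal cytoskeleton was among the brightest groups. Of 33 cytoskeleton and axon growth genes 28 were strong and none was weak, with a median percentile of 98.8. Stathmins, tubulins, peripherin and the collapsin response mediator Dpysl2 (13.24 and 13.22) led it. The lowest members still lay above the array median: the migration-associated Dcx (8.34 and 8.23), the axonal motor Kif1a (8.13 and 8.08) and Dpysl3 (7.70 and 7.56). Both measured synucleins were strong, Sncg as above and Sncb at 11.87 and 11.93.

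Of 32 synaptic vesicle and SNARE genes 13 were strong and 7 were weak. Snap25 (12.99 and 12.97), a SNARE of the plasma membrane, was the highest, followed by Syt4 (12.71 and 12.70), Syngr3 (12.15 and 12.14), the complexin Cplx1 (11.83 and 11.79) and Nsf (11.64 and 11.69), the ATPase that takes SNARE complexes apart. The fast calcium sensors of release gave weak signals, Syt1 at 4.99 and 4.61 and Syt2 at 4.49 and 4.36. Of 16 active zone genes, which organize the site of release, 2 were strong, Apba1 (11.63 and 11.67) and the scaffold Bsn (11.15 and 10.96). Weak members were Rims1 (5.03 and 5.08), Unc13a (5.18 and 5.04), Unc13b, Ppfia2, Rims3 and the large scaffold Pclo (5.79 and 5.78). The active zone list had a median percentile of 58.4, below that of all genes, and the vesicle list one of 81.9.

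Of 26 postsynaptic scaffold genes 6 were strong and 2 were weak, with a median percentile of 81.1. The kinase subunits Camk2d (12.33 and 12.37), Camk2b (10.89 and 10.88) and Camk2g (10.22 and 10.13) were strong, while Camk2a, the subunit that dominates in mature forebrain, had 6.55 and 6.39. Shank1 had 10.78 and 10.69, and Dlgap2 was the lowest at 4.11 and 3.87. Of 26 synaptic adhesion genes 5 were strong: the cerebellin Cbln2 (11.25 and 11.24), the neurexins Nrxn3 (10.86 and 10.73) and Nrxn2, Cdh2 (10.49 and 10.58) and Cntnap2 (10.25 and 10.27). Nlgn2, the neuroligin of inhibitory synapses, was the lowest at 4.88 and 4.92.

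Among transmitter genes, those of glutamate gave the strongest signals. Of 22 genes of transmitter synthesis and transport 12 were weak, and the 4 strong ones were Slc17a6, the glutamine carriers Slc38a1 (11.36 and 11.34) and Slc38a2 (10.86 and 10.90), and Slc1a1 (9.88 and 9.86), a neuronal glutamate transporter. Slc17a7, the vesicular glutamate transporter of cortex, was weak at 4.53 and 4.36. Of the genes for other transmitters, Slc18a2, Slc6a9 (7.58 and 7.44), a glycine transporter, Gad1 and Gad2 lay between the thresholds. Weak ones included Slc32a1, the vesicular GABA and glycine transporter, at 4.90 and 4.90, the acetylcholine enzyme Chat at 5.26 and 5.16, and the other glycine transporter, Slc6a5, at 3.98 and 3.78. The dopamine enzyme Th (5.84 and 5.93) and the serotonin transporter Slc6a4 (4.52 and 4.59) lay below the median as well. Gad1, which makes GABA, was the gene of this group that differed most between the arrays, at 7.14 and 7.85, and Gad2 had 6.01 and 6.02. Slc18a2, the vesicular monoamine transporter, had 9.03 and 8.67, at percentile 81.1.

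Among ionotropic glutamate receptors 1 subunit gave a strong signal. Gria2, the AMPA receptor subunit that makes the channel impermeable to calcium, had 10.60 and 10.66. It was followed by Gria4 (9.11 and 8.80), Gria1 (7.16 and 7.33) and Gria3 (6.67 and 6.87). Grin1, the obligatory NMDA receptor subunit, had 9.41 and 9.27. Of the other NMDA subunits, Grin2b had 6.28 and 5.83, Grin2c 5.68 and 5.63, Grin2a 5.19 and 5.33 and Grin2d 4.77 and 4.50. In all, 5 of 7 NMDA receptor genes were weak. Of 6 kainate and delta receptor genes, Grik5 was the highest at 8.23 and 8.14 and Grik3 the lowest at 4.00 and 3.83. Of 7 metabotropic receptors 6 were weak, and Grm8 (8.73 and 8.52), a presynaptic autoreceptor, stood apart from the rest, of which Grm4 (5.85 and 5.84) was the highest.

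Proteins that bind or cluster AMPA receptors gave strong signals for some members in the untreated state. Of 15 genes on the list of AMPA receptor auxiliary genes 4 were strong. Nptx1 (11.32 and 11.29) encodes neuronal pentraxin 1, a secreted protein that clusters AMPA receptors, and Nptxr (10.72 and 10.72) encodes its membrane-bound relative. The cornichons Cnih1 (11.04 and 11.02) and Cnih2 (10.00 and 9.97) were the other strong members. Cacng2, which encodes stargazin, had 9.16 and 8.95, while Cacng8 (4.71 and 4.31), Cacng5 (4.32 and 4.42) and Neto1 (3.18 and 3.37) were weak.

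Of 19 GABA and glycine receptor genes 4 were strong and 11 were weak. The shares of all genes are 16.3% and 34%. The strong ones were Gabbr1 (11.17 and 11.23) and Gabbr2 (10.83 and 10.83), which together form the GABA-B receptor, the glycine receptor beta subunit Glrb (10.40 and 10.36), and Gabrb1 (10.13 and 10.32). Gabra2 was the highest alpha subunit at 8.66 and 8.85, and Glra2 the highest glycine receptor alpha subunit at 7.61 and 8.01. Gabra6 (4.04 and 3.62), Gabra4 (3.75 and 3.86), Gabrg1 (3.93 and 3.57) and Glra3 (3.15 and 3.49) were weak. Acetylcholine receptors gave no strong signal, and 14 of 18 were weak. The highest were the muscarinic Chrm3 (8.15 and 8.25) and the nicotinic Chrna6 and Chrna3 (7.02 and 6.86). Of 31 amine, purine and peptide receptors 1 was strong, P2rx3 (11.23 and 11.17), an ATP-gated channel known from sensory neurons. The PACAP receptor Adcyap1r1 (9.53 and 9.30) and the adrenergic Adra1b (9.17 and 9.51) came next, and 17 were weak.

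The medium supplied ligands whose receptors could be read from the same arrays. Of 30 trophic factor receptor genes 3 were strong: Ret (10.45 and 10.46), the signaling receptor of the GDNF family, Ntrk2 (10.31 and 10.30), the BDNF receptor TrkB, and Sort1 (10.07 and 9.92), which binds proneurotrophins. CNTF acts through 3 subunits, and these lay far apart on the array: Il6st had 9.32 and 9.20, Cntfr 6.85 and 6.68, and Lifr 4.99 and 4.81. For insulin and the insulin-like growth factors, Insr had 5.42 and 5.39 and Igf1r 7.23 and 7.51. The thyroid hormone receptors Thrb (9.00 and 8.98) and Thra (8.65 and 8.62) stood between the thresholds, as did Ngfr (5.89 and 6.28) and Ntrk3 (6.82 and 6.95). Weak members included the neuregulin receptors Erbb4 (4.02 and 3.88), Erbb2 (4.60 and 4.72) and Erbb3 (5.29 and 5.35), and Met (3.70 and 3.64) was the lowest.

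The list of candidate receptors for astrocyte proteins that induce synapses also holds glypicans and syndecans. Its genes mostly gave signals above the array median before any synapse-inducing protein was added. Of the 20 genes on this mixed list 5 were strong and 1, the glypican Gpc3, was weak, with a median percentile of 83.5. The receptor tyrosine phosphatases had 11.71 and 11.61 for Ptprs, 10.22 and 10.22 for Ptprf and 9.05 and 9.22 for Ptprd. Cacna2d1, which encodes the thrombospondin receptor alpha2delta-1, had 11.49 and 11.44, and the thrombospondin-binding Cd47 had 10.86 and 10.91. Of the glypicans themselves, Gpc1 (9.82 and 9.86) lay just below the strong threshold, Gpc2 had 7.47 and 7.24, Gpc6 6.38 and 6.58, Gpc4 5.67 and 6.52, and Gpc3 was weak at 3.89 and 4.02. Of 23 guidance receptors 3 were strong, Lingo1 (11.42 and 11.26), Epha5 (10.78 and 10.85) and the Slit receptor Robo2 (10.94 and 10.69). The netrin receptor Dcc was weak at 4.31 and 4.13, as was Robo1 at 4.72 and 4.66.

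Ion channel genes covered the whole range of signals. Of 15 sodium channel genes 4 were strong, the beta subunits Scn3b (11.76 and 11.73) and Scn2b (10.21 and 10.35), the channel-binding Fgf13 (10.87 and 11.17) and the pore subunit Scn2a (10.62 and 10.58). Scn8a, the pore subunit of mature nodes of Ranvier, was weak at 4.63 and 4.51. Of 36 potassium channel genes 4 were strong: the axonal Kcna6 (11.24 and 11.15) and Kcna2 (11.04 and 11.01), Kcnip1 (10.41 and 10.29) and Kcnd3 (10.26 and 10.01). Of 22 calcium and HCN channel genes 1 was strong, Cacna1b (10.16 and 10.20), the N-type calcium channel of nerve terminals. Hcn2 had 7.35 and 7.42 and Hcn4 was weak at 4.80 and 4.52.

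**Figure D2:**
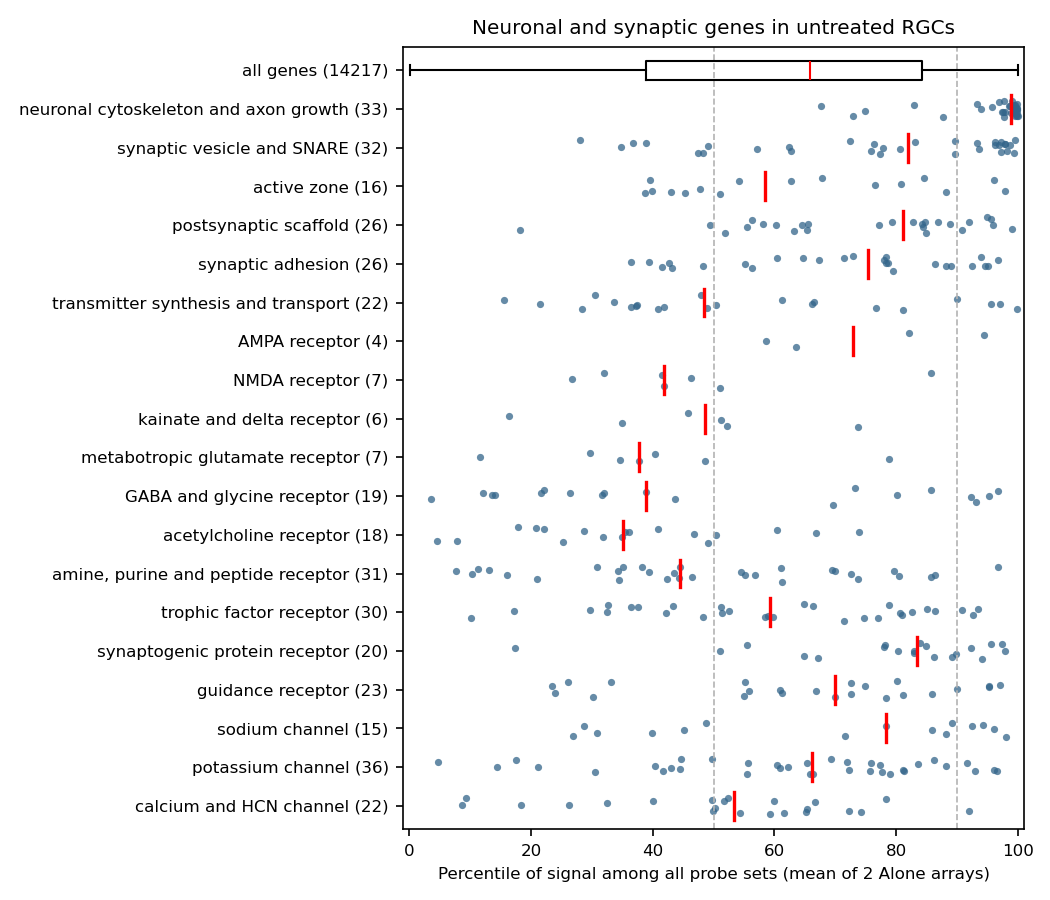
Percentile of each measured gene's signal among all probe sets of the Alone arrays (x axis, mean of 2 arrays, from 0 to 100) for neuronal, synaptic, receptor and channel lists (y axis, number of measured genes in parentheses). Points are genes, red lines are medians, the box gives the quartiles of all genes with whiskers over the rest, and dashed lines mark percentiles 50 and 90; the cytoskeleton list has a median of 98.8, and acetylcholine receptors one of 35.2.

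Genes of energy metabolism were strong in most cases. Of 36 respiratory chain and ATP synthase genes 32 were strong, with a median percentile of 98.8, led by Cox6c (13.28 and 13.35), Atp5f1b (13.18 and 13.16) and Ndufa1 (13.06 and 13.14). COX1, COX2 and Atp5mc3 (13.25 and 13.35), respiratory chain and ATP synthase genes of higher signal than Atp5f1b, are not on this list. The 2 weak ones were Cox6a2 (5.65 and 5.70), the muscle isoform of a subunit whose general isoform Cox6a1 had 13.09 and 13.00, and Cox4i2 (5.16 and 5.19), the isoform known from lung. Of 25 tricarboxylic acid (TCA) cycle and pyruvate genes 21 were strong, led by Mdh1 (13.08 and 13.14) and the citrate synthase Cs (12.08 and 11.95). The low end of this list held regulatory and anaplerotic enzymes: the pyruvate dehydrogenase kinases Pdk2 (7.81 and 7.67) and Pdk4 (4.91 and 4.82), and pyruvate carboxylase Pc (6.27 and 6.44), an enzyme of astrocytes in brain.

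Glycolytic enzymes were mostly strong, and isoforms of 1 enzyme could lie far apart. Of 21 genes 14 were strong and 1 was weak, with a median percentile of 98.3. Aldoa (13.39 and 13.28), Ldha (13.19 and 13.18), Pgam1 (13.12 and 13.10) and the neuronal enolase Eno2 (12.60 and 12.62) led it. Hexokinase 1, Hk1, had 10.26 and 10.19, whereas Hk2, the isoform of muscle and of proliferating cells, was weak at 3.75 and 4.24. The neuronal glucose transporter Slc2a3 had 10.37 and 10.21 and the more general Slc2a1 9.47 and 9.45. Of the lowest members, Pfkfb3, which raises glycolytic flux, had 8.68 and 8.56, and the lactate transporters had 7.59 and 7.69 for Slc16a7 and 7.75 and 7.53 for Slc16a3.

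The remaining metabolic lists were strong in part. Of 22 creatine, adenylate and ion pump genes 9 were strong, led by the sodium pump subunit Atp1b1 (12.78 and 12.75) and the brain creatine kinase Ckb (12.40 and 12.37). Ckm (4.22 and 4.11) and Ckmt2 (3.69 and 3.86), the creatine kinases of muscle, were weak. The chloride extruder Slc12a5, known as KCC2, had 9.90 and 9.98, and the chloride importer Slc12a2, known as NKCC1, had 9.23 and 9.51. Of 19 genes of fatty acid oxidation and ketone use 7 were strong, led by the fatty acid carrier Fabp5 (13.32 and 13.25) and the ketone-using enzyme Oxct1 (11.78 and 11.75). Of 23 cholesterol and fatty acid synthesis genes 13 were strong and none was weak, led by Fdps (12.17 and 12.15), Idi1 (11.85 and 11.92) and Scd2 (11.86 and 11.85). Of 24 amino acid and one-carbon genes 5 were strong. The branched-chain transaminase Bcat1 (13.20 and 13.24) was far above the next, Slc3a2 (10.87 and 10.85), and Cbs was the lowest at 4.41 and 4.30. Of 25 mitochondrial dynamics and transport genes 15 were strong, and all 25 proteasome and ubiquitin genes were, from Psma3 (9.95 and 9.84) to Psmb5 (12.61 and 12.68).

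**Figure D3:**
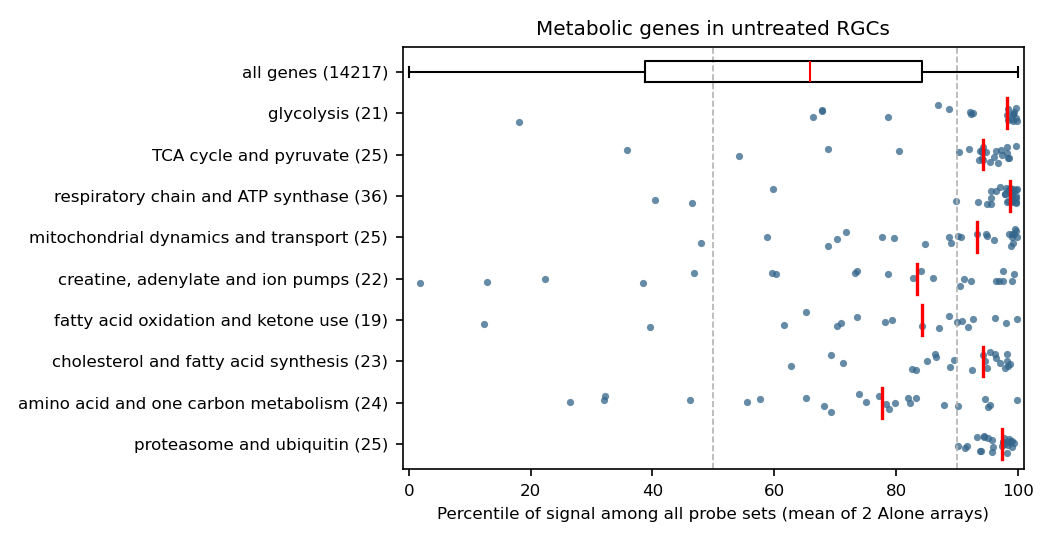
Percentile of each measured gene's signal among all probe sets of the Alone arrays (x axis, mean of 2 arrays, from 0 to 100) for metabolic lists (y axis, number of measured genes in parentheses). Points are genes, red lines are medians, the box gives the quartiles of all genes with whiskers over the rest, and dashed lines mark percentiles 50 and 90; all 25 proteasome and ubiquitin genes lie at or above 90, and the respiratory chain has a median of 98.8.

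Promoter sequence differed along the range of signals. RefSeq promoters of assembly GRCr8 were taken as windows of 300 bases that begin 250 bases before the gene's start. They were matched by gene identifier to 11700 of the 14217 genes (82.3%). When these were divided into 10 equal groups by mean signal, the median number of CG dinucleotides in the window was 6 in the dimmest group, 8 and 13 in the next ones, and 23 in each of the brightest 3. The word TATAAA was searched on the sense strand in the last 50 bases before the start. It stood in 6.58% of promoters of the dimmest group and 2.39% of the brightest group. The share was lowest in the eighth group at 0.34% (4 promoters), beside 1.11% in the seventh and 1.2% in the ninth. It was 2.64% over the 11700 matched genes and 2.46% over all 27457 RefSeq promoters. The cyclic AMP response element TGACGTCA, a palindrome that reads the same on both strands, was searched in the 250 bases before the start. This element stood in 0.68% of the dimmest group and 5.3% of the brightest, against 2.64% of the 11700 matched genes and 1.7% of all RefSeq promoters. These counts are a description over genes, which are not independent, and neighbouring groups were not tested against each other.

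Below are 4 promoters that show these features, each as the 250 bases before the start, read 5′ to 3′ on the gene's strand. Capitals mark CG dinucleotides, TGACGTCA, and TATAAA within the last 50 bases. Sncg (chr16:9711337-9711586, minus strand) has 5 CG and neither word although its signal is among the brightest. Cartpt (chr2:32991236-32991485, minus strand) has 20 CG and a TGACGTCA that begins 142 bases before the start. Prph (chr7:132097039-132097288, plus strand) carries a TATAAA that begins 35 bases before the start. Gcg (chr3:67531534-67531783, minus strand), the proglucagon gene of pancreas, carries one 32 bases before the start and was weak at 4.08 and 3.98.
Sncg: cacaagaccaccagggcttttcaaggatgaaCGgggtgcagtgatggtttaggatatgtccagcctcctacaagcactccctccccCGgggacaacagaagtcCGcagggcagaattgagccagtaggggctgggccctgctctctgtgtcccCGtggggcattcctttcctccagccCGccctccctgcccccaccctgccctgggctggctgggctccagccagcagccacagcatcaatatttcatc
Cartpt: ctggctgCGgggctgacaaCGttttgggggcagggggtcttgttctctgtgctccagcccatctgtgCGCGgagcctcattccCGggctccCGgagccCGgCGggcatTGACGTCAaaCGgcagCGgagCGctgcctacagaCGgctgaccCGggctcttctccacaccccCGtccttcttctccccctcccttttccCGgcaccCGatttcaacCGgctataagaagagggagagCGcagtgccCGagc
Prph: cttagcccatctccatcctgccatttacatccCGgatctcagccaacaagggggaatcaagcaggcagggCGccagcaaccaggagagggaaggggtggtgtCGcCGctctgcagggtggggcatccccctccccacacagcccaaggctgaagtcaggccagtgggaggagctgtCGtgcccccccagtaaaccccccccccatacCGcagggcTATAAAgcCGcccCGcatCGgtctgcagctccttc
Gcg: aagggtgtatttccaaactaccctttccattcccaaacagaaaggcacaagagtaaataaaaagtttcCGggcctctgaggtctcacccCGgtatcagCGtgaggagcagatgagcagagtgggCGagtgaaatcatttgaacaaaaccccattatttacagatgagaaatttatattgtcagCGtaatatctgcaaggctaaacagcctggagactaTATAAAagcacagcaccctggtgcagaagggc
A match of letters is not evidence that a factor binds there, and the pair Prph and Gcg shows the same TATAAA word beside a strong and a weak signal.

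The median absolute difference between the Alone arrays over all probe sets was 0.11, and 82.3% of them lay within 0.25. It was 0.07 for strong genes, 0.10 for those between the thresholds and 0.14 for weak genes. Differences are given as replicate 2 minus replicate 1. Neuronal genes with wide differences included Gad1 (7.14 and 7.85), Syt11 (6.15 and 5.50), Eomes (8.03 and 8.67) and Npy (10.82 and 10.29). Across all probe sets 76 (0.245%) were higher by at least 1 in Alone replicate 2 and 9 (0.029%) were lower. With 1 array per culture these differences have no test within Alone. At this threshold Opn4 (difference 1.01) lay just inside and Apoe (9.59 and 8.62, difference -0.97), a lipoprotein of glia and macrophages, just outside.

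**Figure D4:**
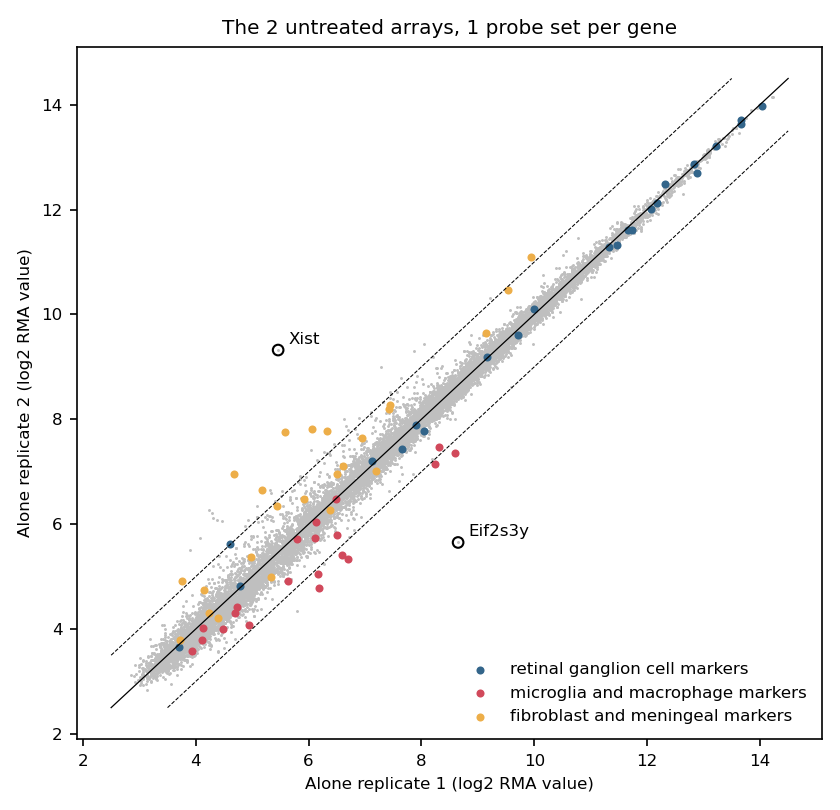
Log2 signal of each gene in Alone replicate 1 (x axis) and Alone replicate 2 (y axis), 1 probe set per gene. The solid line marks equal values and the dashed lines a difference of 1; RGC markers (blue) follow the solid line except Opn4, microglia markers (red) lie below it, and most fibroblast markers (yellow) lie above it.

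Microglia and macrophage markers were lower in Alone replicate 2. All 20 measured microglia and macrophage markers ran this way, with a median difference of -0.60, whereas over all 14217 genes 7241 were lower and 6554 higher. The complement genes C1qa (6.60 and 5.41), C1qb (6.18 and 4.79) and C1qc (6.69 and 5.34), the receptor subunits Fcer1g and Tyrobp (6.17 and 5.05) and the macrophage receptor Adgre1 (8.24 and 7.15) differed by at least 1. The summed linear signal of the 20 genes was 1931 in replicate 1 and 1089 in replicate 2. In arrays that had no part in these values the list was again lower in replicate 2, with a median difference of -0.26 for Gpc4 and -0.72 for TSP1. Outside this list, genes with the largest negative differences at a mean of at least 6 included Pf4, Rac2 and C3, which macrophages also use, and Slc13a3 (8.19 and 7.25). In RNA from a mixed culture, fewer cells of a type and less RNA per cell cannot be told apart.

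Matrix and mesenchymal genes ran the other way. Of 24 fibroblast and meningeal markers 20 were higher in Alone replicate 2, with a median difference of 0.66, and 7 were higher by at least 1. The proteoglycans Lum (4.68 and 6.95) and Dcn (5.59 and 7.75), the collagen Col3a1 (6.06 and 7.82), the growth factor receptor Pdgfra (6.32 and 7.77), the chemokine Ccl11 (5.17 and 6.65), Mgp and Ptgds (3.76 and 4.91) made up these 7. The summed linear signal of the 24 genes was 3692 and 6918, and the median difference of the list was 0.22 in the Gpc4 pair and 0.50 in the TSP1 pair. Pdgfra also stands on the oligodendrocyte and precursor list. Genes outside the fibroblast and meningeal list were higher by at least 1 as well. They included Tagln of the endothelial and pericyte list and the gap junction gene Gja1 (7.86 and 9.31) of the astrocyte and Müller glia list. The calcium-binding S100a6 (7.29 and 9.00), tenascin Tnc (6.67 and 7.88) and the prostaglandin enzyme Ptgs2 (6.63 and 8.01) were others. The part of other cell types in the signal of RGC genes was not tested.

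Of 444 measured genes of chromosome X, 1 was higher by at least 1 in Alone replicate 2 and none was lower by that much, with a median difference of 0.02. That gene, Xist, encodes the RNA of the inactive X chromosome and had 4 probe sets, with values of 3.86 and 9.13, 4.31 and 9.21, 5.46 and 9.32, and 4.92 and 8.21, so that replicate 2 was higher on each. The Y-linked translation factor gene Eif2s3y was lower in replicate 2 (8.65 and 5.65), and its X-linked partner Eif2s3 had 9.70 and 10.14. In the treated pairs the Xist differences ran from 2.97 to 4.91 and those of Eif2s3y were -3.14 and -3.93. Uty, another Y-linked gene and named here after its values were seen, had 7.11 and 8.13 in Alone and differences of 0.14 and 0.19 in the treated pairs. The sex of the pups behind each culture is not given in the labels.

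The treated arrays were used to ask whether these differences returned in other arrays of the same replicate numbers. A return cannot tell a difference between cultures from a handling that arrays of the same number shared. Of the 85 probe sets apart by at least 1, 77 (90.6%) had the same sign in the Gpc4 pair and in the TSP1 pair, against 9731 of all 31042 (31.3%). The difference between cultures was tested in the 4 treated arrays with limma, which fits 1 linear model per probe set and borrows the error estimate from the others, with treatment as a covariate. No probe set passed an adjusted p under 0.05 (0%), and 2597 (8.37%) had an unadjusted p under 0.05, of which 4.17% of all probe sets were higher in replicate 2 and 4.2% lower. After quantile normalization over the 6 arrays, the same test on the treated arrays was different: 145 probe sets passed as higher in replicate 2 and 40 as lower. Among the 85, 62 had an unadjusted p under 0.05, and all 62 ran in the direction of the Alone arrays, as did 1778 of the 2597 over all probe sets. The fit has 1 residual degree of freedom, and on simulated data it recovered 0.25% of 2-fold and 72.7% of 4-fold differences after adjustment. In the real arrays even larger differences were missed. Xist probe sets differed by 2.975 to 4.605 in the treated fit, with adjusted p from limma of 0.1197 to 0.4775. Eif2s3y differed by -3.535, with an adjusted p from limma of 0.5762. The simulated recovery therefore does not carry over to these arrays, and an adjusted p that misses the threshold says little about a single gene. Whether the culture difference itself differed between untreated and treated arrays was tested as an interaction over all 6 arrays, and none passed (0%), with 1758 (5.66%) at an unadjusted p under 0.05.

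For some genes the 3 pairs gave unlike values. The genes of this paragraph, apart from Opn4 and Pdgfra, were chosen after their values were seen. The muscle myosin light chains Myl11 (4.23 and 6.26), Myl4 (4.38 and 6.08) and Myl1 (3.72 and 4.89) were higher in Alone replicate 2 by 2.03, 1.70 and 1.17. In the treated pairs their differences lay between -0.11 and 0.20, and none passed the interaction test (adjusted p = 0.74 from limma for each). That fit has 1 residual degree of freedom, and its power was not simulated. It therefore cannot decide whether these differences were particular to the Alone pair. The pigment cell genes Dct (4.28 and 6.22) and Tyrp1 (4.46 and 6.06) differed by 3.14 and 1.65 in the TSP1 pair but by 0.14 and 0.20 in the Gpc4 pair. Pdgfra differed by 1.40 in the Gpc4 pair and by -0.15 in the TSP1 pair. Opn4 differed by 0.49 and 0.40.

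**Figure D5:**
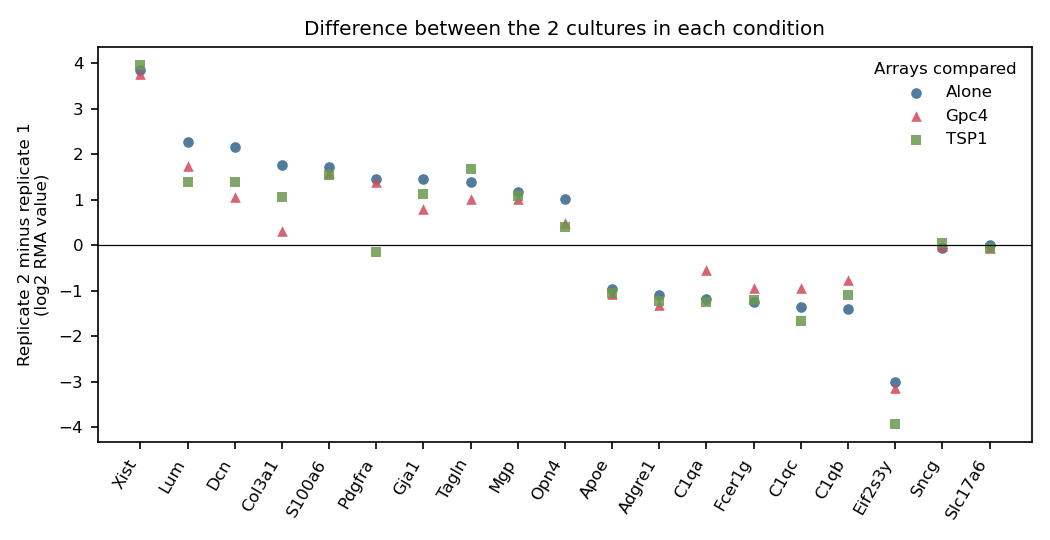
Difference in log2 signal, replicate 2 minus replicate 1 (y axis), for named genes (x axis) in the Alone, Gpc4 and TSP1 pairs of arrays, with 1 point per pair and the line at 0 marking equal signals. Xist stands near 4 in every pair, Eif2s3y at -3.00 or below, microglia genes below 0 and most matrix genes above 0, while Sncg and Slc17a6 lie near 0.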

How the data were processed

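The titles of the 6 samples gave the groups. The scanned Affymetrix Rat Genome 230 2.0 arrays were summarised by the authors in Affymetrix Expression Console, whose version is not given in the sources used here. What they deposited is 1 log2 RMA value per probe set and array, background-corrected, normalized between arrays and rounded to 2 decimals, and it was used as it stands. Normalization between arrays sets their medians close together, and a signal that saturates or lies near background compresses differences.

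Of 31042 probe sets, 20826 carry 1 symbol in the platform annotation (14217 genes), 436 carry several and 9780 none, and these last kinds were not named. The probe set with the highest mean stood for a gene. Of the 20826, 20758 matched the RefSeq gene table of GRCr8 by gene identifier. The 43 gene lists hold 1040 genes, of which 911 were measured. The arrays and the lists were chosen with earlier results of these data known. Genes named are the 30 of highest mean, the highest and lowest 6 members of a list (all members of short lists and of the RGC marker, synuclein, transmitter and trophic receptor lists), the 12 in each direction with the largest Alone difference at a mean of at least 6, list members apart by at least 1, and up to 6 genes whose probe sets differ most. Aqp4, Dpysl2, Eif2s3, Eomes, Gcg, Glra2, Hcn2, Hk1, Npy, Ptprd, Rcvrn, Slc2a3, Slc12a2, Slc12a5 and Uty, the genes next to a threshold, and the myosin and pigment cell genes were chosen after their values were seen.

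For culture differences lmFit and eBayes of limma 3.58.1 were run in R 4.3.3, two-sided with Benjamini-Hochberg adjustment over all probe sets, and the test was tried on simulated data. Same-numbered arrays deviated together, with correlations across probe sets of 0.29, 0.35 and 0.37 for the 3 pairs of groups, and the methods state separate cultures. The number of arrays limits the precision. Figures were drawn with matplotlib 3.10.9. The alternatives were other choices of probe set, percentile base and threshold, median centring, quantile normalization, a mean of at least 6, a trended variance, and leaving out each array.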

Additional observations from a re-analysis of the deposited data

How the results depend on the processing

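Counts of strong and weak genes depended on the threshold and on the probe set that stands for a gene. Strong genes numbered 1152 at the 95th percentile, 5443 at the 75th and 1471 with the dimmest probe set of each gene, and weak genes numbered 2090 below the 25th percentile. Without Alone replicate 1 or 2 the strong genes numbered 2325 and 2319 and the weak genes 4831 and 4854. For the lists, leaving out replicate 2 moved 3 of 86 counts of strong or weak members by over 1.5 times and leaving out replicate 1 moved none, while taking the dimmest probe set moved 46. Between the Alone arrays, 331 probe sets were higher and 153 lower in replicate 2 by at least 0.58, and at a mean of at least 6, 40 were higher and 5 lower by at least 1. The culture test called 0 probe sets in the 4 treated arrays, but 145 higher and 40 lower after quantile normalization, and 134 higher and 40 lower over all 6 arrays, which hold the Alone values themselves. Leaving out any 1 treated array from those 6 called 0 in each direction. The cause was not tested. No paired analysis was possible because the replicate number is itself the term tested for the culture difference, and the levels in the Alone group come from no test. Signals below the array median are not shown to be above background, which limits every statement on weak genes.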
